A study of Mus musculus with 6 samples.

Results

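Levels of 10 immediate early genes were compared in squamous carcinoma cells that differed in Sox2. They are the AP-1 genes Fos, Fosb, Fosl2, Jun, Junb and Jund, the related factor Atf3, the zinc finger factor Egr1, and the response genes Ier2 and Ier3. The list was drawn up by name, with earlier results of these data known. All 10 genes were found among the 55385 mouse genes of the count table. PDVC57 is a long-established line of malignant mouse keratinocytes. RNA-seq was available from 3 libraries labelled Sox2 KO (knockout) and 3 labelled Sox2 overexpression, and the series' design text describes low-Sox2 and high-Sox2 carcinoma cells taken out of tumours grown as grafts. Both groups share the cell line and the low-input library kit, per the labels. Clone, host strain, age of the tumours and the origin of the replicates are not in the labels, so p-values measure only the spread between these libraries. None of the libraries is labelled as unmodified PDVC57 cells, so each difference is between the 2 modified groups.

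Immediate early genes are transcribed within a short time of a stimulus, without the need for new protein. Serum, growth factors, wounding, heat and the enzymes used to take tissue apart all switch them on, through MAP kinases that act on SRF, ETS-type and CREB-type factors at their promoters. Fos and Jun proteins share a basic region and a leucine zipper, pair with each other as AP-1 and bind the element TGANTCA. In epidermis, AP-1 takes part in proliferation, differentiation and the malignant growth of keratinocytes.

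RefSeq promoter windows (GRCm38.p6) were found for 8 of the 10 genes, all but Egr1 and Ier2. The bases just before the start site are shown for the Fos pair that had like levels across the libraries (Fos and Fosb), for the Jun pair that did not (Jun and Junb), and for Ier3. Each line gives 120 bases, 5′ to 3′ on the gene's strand, and capitals mark the half-site of the cAMP response element, TGACG, on either strand.
Fos (chr12:85473770-85473889, plus strand): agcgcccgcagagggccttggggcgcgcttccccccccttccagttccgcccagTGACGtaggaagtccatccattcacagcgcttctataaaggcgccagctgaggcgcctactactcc
Fosb (chr7:19310046-19310165, minus strand): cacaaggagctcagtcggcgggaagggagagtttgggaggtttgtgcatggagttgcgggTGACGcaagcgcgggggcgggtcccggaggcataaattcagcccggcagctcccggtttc
Jun (chr4:95052223-95052342, minus strand): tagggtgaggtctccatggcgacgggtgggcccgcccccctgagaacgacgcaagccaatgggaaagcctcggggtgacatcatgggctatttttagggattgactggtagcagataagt
Junb (chr8:84978749-84978868, minus strand): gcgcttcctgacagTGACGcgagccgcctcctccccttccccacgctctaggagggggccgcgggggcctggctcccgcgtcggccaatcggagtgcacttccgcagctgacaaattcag
Ier3 (chr17:35821593-35821712, plus strand): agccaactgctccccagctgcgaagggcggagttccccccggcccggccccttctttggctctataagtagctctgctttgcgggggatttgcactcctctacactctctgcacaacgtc

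The half-site began 66 bases before the RefSeq start of Fos, 60 before that of Fosb and 106 before that of Junb. Over 250 bases before the start, 4 of the 8 genes had at least 1 TGACG on either strand (Fos, Fosb, Junb and Atf3), where 17.8% of 32851 promoters of that length did. The full element TGACGTCA, which contains the half-site, the AP-1 element TGANTCA and the CArG box bound by SRF were in 0 of the 8, against 1.55%, 6.75% and 1.47% of all promoters. The windows follow RefSeq starts, which met the gene starts given below only for Fos and Jun. Those of Fosb and Ier3 ended just inside the gene, at base 19310046 of chromosome 7 and base 35821712 of chromosome 17. That of Junb ended at base 84978749 of chromosome 8, just before the gene start at 84978718. For Jund the window ended at base 70697738 of chromosome 8, before the gene start at 70698949. For Atf3 and Fosl2 it ended inside the gene, at base 191183334 of chromosome 1 and base 32136471 of chromosome 5. These matches describe exact letters in a short window and do not mark bound sites. Elements further upstream or with other letters were not searched.

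The level of Sox2 went with the labels, with 25 to 49 counts in the knockout libraries and 2566 to 4095 in the overexpression libraries. Library totals lay between 31247976 and 38543221 counts over mouse genes. Summed over 10 fibroblast markers, the knockout libraries held 53173 to 81041 CPM (counts scaled to library size) and the overexpression libraries 246 to 388 CPM. Col1a1 and Dcn were among those 10, all lower with overexpression past the threshold. Whether this RNA came from fibroblasts or from the labelled PDVC57 cells themselves cannot be told from these values. Sums over 12 epithelial markers were 4616 to 7255 CPM with knockout and 10249 to 14611 CPM with overexpression, with Krt5, Krt14 and Epcam detected in both groups. White blood cell markers (10 genes) summed to 22.3 to 113 CPM and 8.07 to 23.04 CPM, and endothelial markers (5 genes) to 25.0 to 96.5 CPM and 11.8 to 19.04 CPM. The immediate early genes are expressed by fibroblasts and by keratinocytes alike, and the part of any fibroblast RNA in their values was not tested. In bulk RNA, fewer cells of a type and less RNA per cell cannot be told apart.

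By CPM, the 10 genes were among the most abundant transcripts of every library in both groups. Together they held from 1.69% of counts in knockout replicate 3 (95% Wilson interval 1.686% to 1.694%) to 2.29% in overexpression replicate 3 (2.283% to 2.293%), and the groups overlapped. Fosb ranked between 5 and 13 among 18504 tested genes by CPM over the 6 libraries, and Fos between 8 and 24. Fosl2 was the least abundant, with ranks from 167 to 305. Levels of different genes can be compared only per length, here as CPM per kilobase of the principal GENCODE transcript. Among 14703 genes ranked in that way, Fos ranked between 13 and 44, Fosb between 22 and 63 and Fosl2 between 654 and 1010.

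On that per-length scale the order of the genes differed between the groups. With knockout, Fos came first at 1627 ± 320 CPM per kilobase (SD, n = 3), followed by Atf3 (1138), Fosb (1105), Junb (987), Jun (734), Jund (695), Ier3 (504), Ier2 (471), Egr1 (411) and Fosl2 (77.8). With overexpression, Junb came first at 1632 ± 293 CPM per kilobase (SD, n = 3), followed by Atf3 (1408), Fos (1394), Jund (1181), Fosb (1037), Ier3 (847), Ier2 (785), Jun (511), Egr1 (407) and Fosl2 (89.1). Many neighbours in these orders were closer than the larger of their SDs. With knockout this held for Atf3 and Fosb, Fosb and Junb, Jun and Jund, Ier3 and Ier2, and Ier2 and Egr1. With overexpression the only gaps beyond that spread were those between Ier2 and Jun and between Egr1 and Fosl2.

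**Figure D1:**
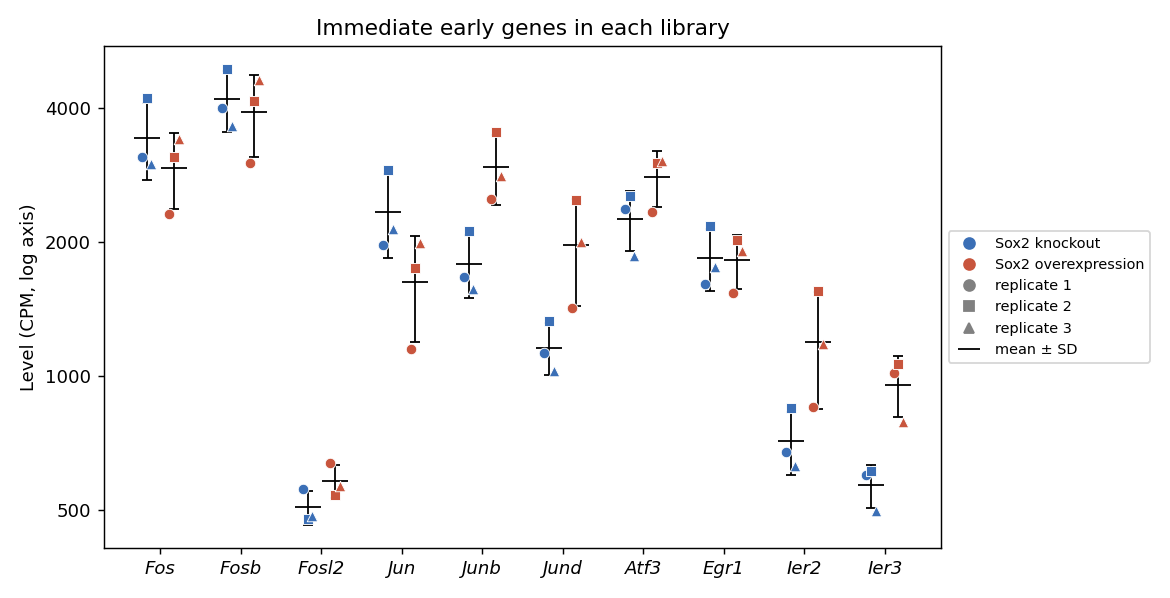
Level of each of the 10 genes in each library, in CPM on a log axis, with blue for knockout, red for overexpression, a symbol for each replicate number, and bars for the mean ± SD (n = 3). The red points lie above the blue points for Junb, Jund, Ier2 and Ier3, and the groups overlap for the other 6 genes.

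Across the groups, 4 of the 10 genes were higher with Sox2 overexpression: Junb, Jund, Ier2 and Ier3. Each was higher by about 1.7-fold. In the lower direction 0 of the 10 passed, both in edgeR (0 at an unadjusted p under 0.05) and in DESeq2 (1, Jun, at an unadjusted p under 0.05). In the edgeR quasi-likelihood test with Benjamini-Hochberg adjustment over all genes, 31.6% of tested genes passed the threshold of 0.05, and 13.6% did so in the higher direction. The groups did not overlap for the same 4 of the 10 genes and for 50.9% of all tested genes. As a count of genes called in either direction, 4 of 10 (40%) is near the background, and no test of the list was made. The 10 genes had a median of 0.25 and all tested genes one of -0.016 (log2 fold change).

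Junb encodes a Jun protein that in keratinocytes is linked to differentiation and to restraint of growth. Its gene lies on chromosome 8 (84974484 to 84978718, minus strand, GRCm38), and 173 exonic bases overlap Prdx2 on the other strand, which had 40267 counts in all libraries together, so part of Junb's counts could come from that gene. Its level was 1673, 2113 and 1570 CPM in knockout replicates 1, 2 and 3, and 2504, 3536 and 2817 CPM in overexpression replicates 1, 2 and 3. The lowest overexpression library stood above the highest knockout library. On the log2 scale Junb was 0.73 higher (standard error 0.21, edgeR adjusted p = 0.0308).

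Jund is the Jun protein most often found in resting cells. Its gene has 1 exon (chromosome 8, 70698949 to 70700616, plus strand), 877 bases of which overlap the antisense gene Gm11175, which had 30 counts in all libraries together. Its level was 1125, 1329 and 1025 CPM with knockout and 1424, 2490 and 1997 CPM with overexpression. Overexpression replicate 1 lay close to knockout replicate 2, and the groups did not overlap. On the log2 scale this was a rise of 0.76 (standard error 0.24, edgeR adjusted p = 0.0376).

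Ier2 encodes a short-lived nuclear protein induced by growth factors, from 1 exon of chromosome 8 (84661331 to 84662852, minus strand). It had 674, 848 and 628 CPM with knockout and 852, 1551 and 1183 CPM with overexpression. Here too overexpression replicate 1 was barely above knockout replicate 2. The rise of Ier2 on the log2 scale was 0.74 (standard error 0.24, edgeR adjusted p = 0.0483).

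Ier3 encodes a small protein linked to ERK signalling and cell survival (chromosome 17, 35821684 to 35822923, plus strand). Its level was 601, 611 and 498 CPM with knockout and 1019, 1067 and 787 CPM with overexpression. Of the 10 genes it had the smallest p-value, with a log2 fold change of 0.75, a standard error of 0.19 and an adjusted p of 0.0153 (edgeR). Overexpression replicate 3 was the lowest of its group, and still above every knockout library.

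These 4 calls rest on few libraries. Without knockout replicate 1 the adjusted p (edgeR) was 0.0982 for Junb, 0.0993 for Jund and 0.125 for Ier2, and without knockout replicate 3 it was 0.108, 0.116 and 0.138 for these genes and 0.0658 for Ier3, so that 0 of the 10 genes were called, with the 4 at an unadjusted p under 0.05. Without knockout replicate 2 it was 0.0648 for Jund and 0.0657 for Ier2. Without overexpression replicate 2 it was 0.0516 for Junb, 0.0749 for Jund and 0.101 for Ier2, and without overexpression replicate 3 it was 0.0598, 0.083 and 0.0946. Without overexpression replicate 1 all 4 stayed past the threshold. Their log2 fold changes lay between 0.53 and 0.97 in these 6 fits, above 0 in each.

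The direction of the 4 genes also depended on how libraries were scaled. When each library was scaled to the 12 epithelial markers, of which 8 were themselves higher with overexpression, the median over all tested genes went from -0.016 to -1.15 (log2 fold change). Under this scaling Junb, Jund, Ier2 and Ier3 had log2 fold changes of -0.40, -0.38, -0.41 and -0.35 and passed no threshold (edgeR, adjusted p = 0.182, 0.216, 0.199 and 0.276). The other 6 were lower past the threshold. Relative to the median of all genes, the 4 stood 0.74 to 0.80 higher on the log2 scale under this scaling. Rescaling libraries shifts all genes by about the same amount, so this distance hardly changes and cannot decide between the scalings.

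**Figure D2:**
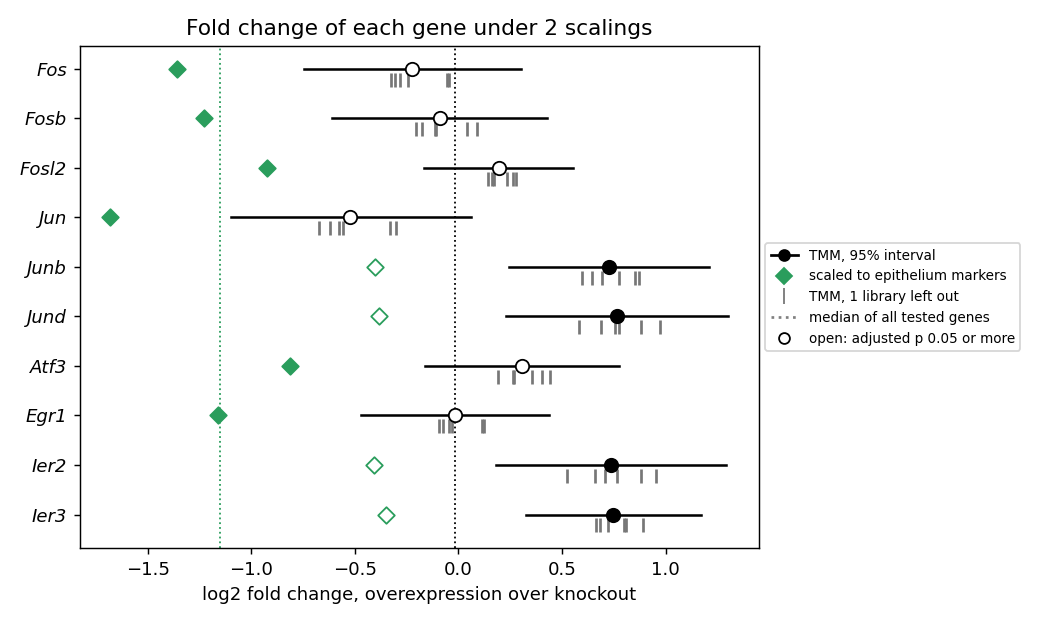
Log2 fold change, overexpression over knockout, of each gene with its 95% interval under TMM scaling (circles), with 1 library left out (ticks) and under scaling to epithelial markers (diamonds). Filled symbols have an adjusted p under 0.05, and dotted lines mark the median over all tested genes under each scaling, at -0.016 and -1.15.

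Jun encodes c-Jun, the Jun protein most associated with proliferation. It is a single-exon gene on chromosome 4 (95049034 to 95052222, minus strand), and 232 bases overlap the antisense gene Junos, which had 207 counts in all. Its level was 1968, 2909 and 2143 CPM with knockout and 1148, 1748 and 1993 CPM with overexpression. Overexpression replicate 3 was higher than knockout replicate 1, so the groups overlapped. The log2 fold change was -0.52 (95% interval -1.1 to 0.061), with an adjusted p of 0.156 (edgeR).

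The Fos genes encode the partners that cannot pair with themselves and need a Jun protein. Fos (chromosome 12, 85473890 to 85477273, plus strand) had 3097, 4206 and 2989 CPM with knockout and 2306, 3098 and 3411 CPM with overexpression. Fosb (chromosome 7, 19302696 to 19310051, minus strand) had 4005, 4895 and 3634 CPM with knockout and 3008, 4151 and 4607 CPM with overexpression. In both genes overexpression replicate 1 was the lowest of all 6 libraries and the other overexpression libraries lay within the knockout range. The log2 fold changes were -0.22 for Fos (95% interval -0.75 to 0.30, edgeR adjusted p = 0.493) and -0.091 for Fosb (-0.61 to 0.43, adjusted p = 0.788), intervals that leave room for changes in either direction.

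Fosl2 encodes Fra-2, a Fos protein with a slower and longer induction (chromosome 5, 32135801 to 32157842, plus strand). It had 560, 479 and 487 CPM with knockout and 639, 542 and 566 CPM with overexpression, and knockout replicate 1 lay within the overexpression range. Its log2 fold change was 0.20 (95% interval -0.16 to 0.56, edgeR adjusted p = 0.378).

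Atf3 encodes a stress-induced member of the ATF family that can pair with Jun proteins (chromosome 1, 191170296 to 191218039, minus strand). It had 2374, 2533 and 1864 CPM with knockout and 2333, 3014 and 3034 CPM with overexpression. Overexpression replicates 2 and 3 stood above all knockout libraries, and replicate 1 was within their range. The log2 fold change was 0.31 (95% interval -0.16 to 0.78, edgeR adjusted p = 0.286).

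Egr1 encodes a zinc finger factor switched on by ERK signalling through SRF (chromosome 18, 34859823 to 34864984, plus strand). It had 1606, 2168 and 1756 CPM with knockout and 1538, 2021 and 1910 CPM with overexpression. These ranges nearly coincided, and the log2 fold change was -0.016 (95% interval -0.47 to 0.44, edgeR adjusted p = 0.96).

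Within each group the genes tended to be high or low in the same library. Knockout replicate 2 had the highest level of its group for 9 of the 10 genes, all but Fosl2. Overexpression replicate 1 had the lowest level of its group for 8 of the 10, all but Fosl2 and Ier3. The median deviation from the group mean over the 10 genes was 0.24 on the log2 scale in knockout replicate 2 and -0.29 in overexpression replicate 1. Knockout replicate 2 also had the highest fibroblast and epithelial marker sums of its group, and overexpression replicate 1 the lowest of both in its group. The epithelial sums of knockout replicates 1 and 2 were nearly equal (7253 and 7255 CPM). Summed heat shock and stress genes were likewise highest of the group in knockout replicate 2 (11941 CPM) and lowest in overexpression replicate 1 (10272 CPM). The part of any of these sums in this pattern was not tested.

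Ratios between the genes within a library do not depend on the scaling of libraries. The share of Jun in the summed per-length level of Jun, Junb and Jund was 27.8%, 31.7% and 31.2% in knockout replicates 1, 2 and 3, and 13.9%, 13.7% and 18.5% in overexpression replicates 1, 2 and 3. Junb made up 40.3% to 41.7% with knockout and 46.1% to 53.3% with overexpression, and Jund 27.7% to 30.4% and 32.9% to 37.4%. None of these ranges overlapped. The per-length ratio of Jun to Junb was 0.741 ± 0.0639 with knockout and 0.314 ± 0.0763 with overexpression (SD, n = 3 each; exact two-sided permutation test p = 0.1, the smallest that 3 against 3 libraries can give).

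Shares were computed in the same way for the genes of the Fos proteins. Fos made up 54.8% to 58.3% of the summed per-length level of Fos, Fosb, Fosl1 and Fosl2 with knockout and 52.7% to 53.4% with overexpression. Fosl1, which encodes Fra-1, made up 1.71% to 2.49% and 3.72% to 4.26%. Its exons overlap those of Ccdc85b on the other strand over 1163 bases, so part of its counts could come from that gene. The shares of Fosb and Fosl2 overlapped between the groups. The ratio of the Fos family to the Jun family, per length, was 1.21, 1.19 and 1.16 with knockout and 0.799, 0.689 and 0.898 with overexpression. Of the 9 shares and ratios compared, 7 did not overlap between groups, where 50.9% of all tested genes did not. Each of the 7 had an exact permutation p of 0.1 (adjusted 0.129), so none could pass the threshold in this design. The 9 are not separate results, as shares within a family add up to the whole and the ratio of Jun to Junb follows from them.

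**Figure D3:**
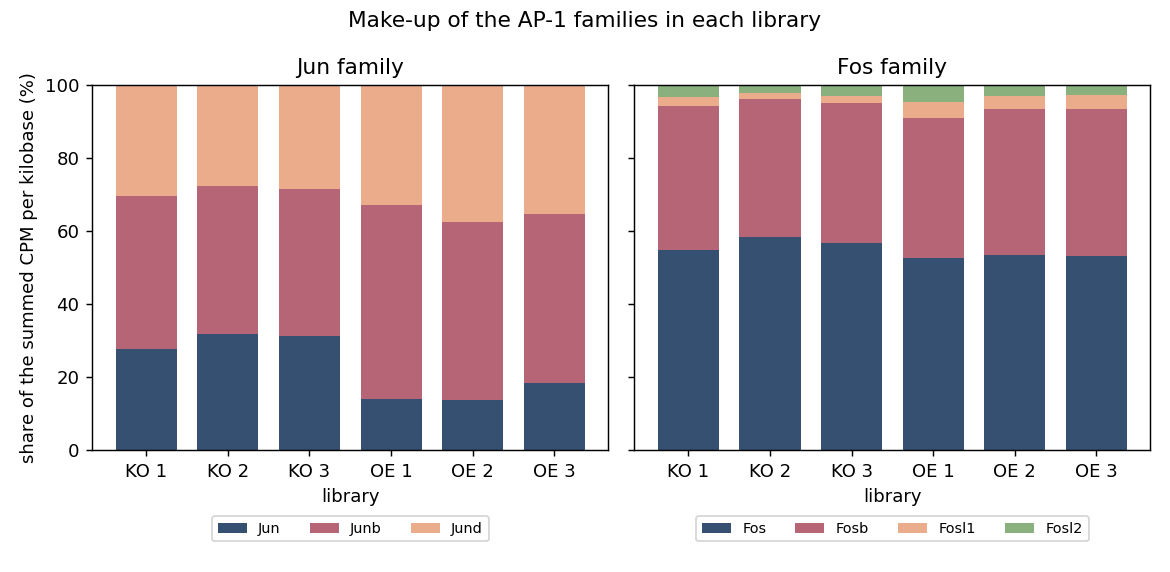
Share of each gene in the summed CPM per kilobase of its family, in percent, for each library (KO, knockout; OE, overexpression; numbers are replicates). The Jun segment is 27.8% to 31.7% in the knockout libraries and 13.7% to 18.5% in the overexpression libraries, while the Fos family keeps Fos and Fosb as its main parts throughout.

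Over the 6 libraries, the closest gene to Fos among 8450 compared genes was Prpf40b, with a root mean square difference of 0.0709 between mean-centred log2 CPM profiles. Fosb was second (0.077), followed by Prnp (0.0798) and Cebpa (0.0859). Egr1 was in place 22 (0.146) and Jun in place 104 (0.179). The genes closest to Egr1 were Inafm1 (0.0758), Rxylt1 (0.0768), Cchcr1 (0.0782) and B4gat1 (0.0846), with Fosb in place 102. Ier3, Jund, Junb and Ier2 stood between places 6098 and 6784 from Fos. With 6 libraries in 2 groups this measure only describes profiles.

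Other primary response genes showed calls in both directions. Of 35 such genes tested, 10 were higher with overexpression and 7 lower past the threshold (edgeR), a share of 48.6% beside 31.6% of all genes, and their median was 0.23 (log2 fold change). The 4 rises with the smallest p-values were those of Plk2, a kinase of the stress response, Maff, a small Maf protein, Egr3, a relative of Egr1, and Arc, a gene best known from neurons. Egr3 had 130, 106 and 60.5 CPM with knockout and 274, 290 and 322 CPM with overexpression, which is 1.58 on the log2 scale (edgeR, adjusted p = 0.00214). Egr1 and Egr3 differed in this respect: the groups were apart for Egr3 and overlapped for Egr1, and the difference itself was not tested. Plk2 rose from 157 ± 11.2 to 343 ± 41.9 CPM and Maff from 150 ± 16.9 to 344 ± 66.1 CPM (SD, n = 3 each). Arc rose from 10.5 ± 2.47 to 24.4 ± 1.30 CPM (SD, n = 3 each). Under the epithelial scaling these 4 were not called, with log2 fold changes of -0.018 for Plk2, 0.049 for Maff, 0.52 for Egr3 and 0.085 for Arc.

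The 4 falls with the smallest p-values were those of the growth arrest genes Gadd45g and Gadd45b, of Zfp36l1, whose protein destabilises AU-rich mRNAs, and of the small GTPase gene Rhob. Gadd45g had 65.5, 158 and 110 CPM with knockout and 27.6, 46.7 and 41.5 CPM with overexpression, which is -1.53 on the log2 scale (edgeR, adjusted p = 0.00698). Gadd45b fell by 0.73 on the log2 scale, Zfp36l1 by 0.89 and Rhob by 0.97. The exons of Zfp36l1 overlap those of the noncoding gene Gm26669 on the other strand over 1672 bases. The count of lower genes went from 7 to 2 without knockout replicate 2, the knockout library in which Gadd45g and most of the 10 immediate early genes were highest, and to 4 without overexpression replicate 2 or 3. Without knockout replicate 2 Zfp36l1 and Rhob had adjusted p-values of 0.0718 and 0.0865, and Zfp36l1 had 0.0565 without overexpression replicate 2.

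Of 22 bZIP genes, which encode possible partners or rivals of AP-1, 4 were higher and 5 lower (edgeR). These calls were 40.9% of the list, beside 31.6% of all genes, and the median log2 fold change was 0.11. Fosl1 and Maff, 2 of the 4 higher genes, are also among the 35 primary response genes. The count of higher genes went from 4 to 2 without knockout replicate 2 or 3. Fosl1 rose, with 125, 109 and 92.4 CPM with knockout and 165, 192 and 211 CPM with overexpression (adjusted p = 0.00706, edgeR), and its log2 fold change of 0.80 became -0.32 under the epithelial scaling. Maf had 84.1 ± 13.7 CPM with knockout and 20.05 ± 4.37 CPM with overexpression (SD, n = 3 each), and fell by 2.07 on the log2 scale (edgeR, adjusted p = 0.000105). Batf, which encodes an AP-1 partner of white blood cells, had 49, 42 and 145 counts with knockout and 3, 1 and 0 with overexpression. The ratio of its summed counts, at equal depth, was 59.6 (95% exact binomial interval 23.0 to 221, counting error only). It was 36.0 without knockout replicate 3, 36.5 without overexpression replicate 3 and 162 without overexpression replicate 1, which left 1 count (interval 28.7 to 6410). These counts stood beside white blood cell markers whose sum was highest, at 113 CPM, in the same knockout replicate 3.

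Genes for proteins that act upstream of the immediate early promoters were tested as well. Of 20 tested genes for SRF, its ETS partners, its MRTF cofactors, MAP kinases and coactivators, 4 were higher and 0 lower past the threshold. This was 20% called in edgeR, beside 31.6% of all genes, with 1 lower at an unadjusted p under 0.05. Past the threshold, 1 was lower in DESeq2 and 1 in edgeR with upper-quartile factors. Mapk3, which encodes ERK1, had 97.4, 104 and 94.04 CPM with knockout and 152, 259 and 193 CPM with overexpression, 1.03 higher on the log2 scale (edgeR, adjusted p = 0.00486). Srf had 109, 103 and 104 CPM with knockout and 138, 201 and 182 CPM with overexpression, 0.72 higher on the log2 scale (edgeR, adjusted p = 0.0122, or 0.053 without knockout replicate 2). Under the epithelial scaling these 2 genes had log2 fold changes of -0.12 and -0.44. The count was 1 without knockout replicate 2, and 2 without knockout replicate 1 or 3 or overexpression replicate 3.

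Heat shock and stress genes, which tissue dissociation also induces, were measured in the same libraries. Of 18 tested genes, 2 were higher (Hspa1b and Hspe1) and 2 lower (Hsph1 and Hmox1) past the threshold (edgeR). These calls were 22.2% of the list, beside 31.6% of all genes, and the median log2 fold change was 0.088. The summed level of the 18 genes was 9137 to 11941 CPM with knockout and 10272 to 14978 CPM with overexpression, with overlapping groups. Hspa1b had 766, 777 and 433 CPM with knockout and 822, 2089 and 2086 CPM with overexpression (adjusted p = 0.0268, edgeR), and its reads could be split with the near-identical Hspa1a. Under the epithelial scaling the log2 fold change of Hspa1b went from 1.34 to 0.21 and that of Hspe1 from 0.63 to -0.54, and neither was called (edgeR, adjusted p = 0.522 and 0.119). The low overexpression library of Hspa1b was again replicate 1. Hsph1 had 221 ± 12.7 CPM with knockout and 124 ± 21.5 CPM with overexpression (SD, n = 3 each; edgeR, adjusted p = 0.00594). The calls of Hspa1b, Hspe1 and Hmox1 were lost in at least 4 of the 6 fits with 1 library left out, and the list then had 1 to 5 calls: 1 without knockout replicate 3, 2 without knockout replicate 1 or 2 or overexpression replicate 3, and 3 and 5 without overexpression replicates 2 and 1. The exons of Hspe1 overlap those of Hspd1 on the other strand. The part of dissociation in the levels of the 10 genes was not tested.

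Textbook AP-1 targets split by direction. Of 18 tested genes, 5 were higher and 7 lower past the threshold (edgeR, 66.7% called, beside 31.6% of all genes). The median was 0.00015 (log2 fold change). The same count of 12 was called in each fit with 1 library left out. Under the epithelial scaling 3 were higher and 10 lower, with a median of -1.19. Lor, a cornified envelope gene, had 1.14, 1.59 and 0.384 CPM with knockout and 15.2, 18.1 and 23.3 CPM with overexpression, 4.195 higher on the log2 scale (edgeR, adjusted p = 0.000195). Ccnd1, which encodes cyclin D1, had 304, 302 and 272 CPM with knockout and 627, 795 and 582 CPM with overexpression, 1.19 higher on the log2 scale (edgeR, adjusted p = 0.00104), or 0.060 under the epithelial scaling. Its exons overlap those of LTO1 on the other strand over 1100 bases. Mmp3, a stromelysin gene, had 112, 462 and 388 CPM with knockout and at most 0.507 CPM with overexpression (adjusted p = 1.38e-05, edgeR). Ccl2, a monocyte chemoattractant gene, had 27.7, 66.9 and 36.7 CPM with knockout and at most 0.732 CPM with overexpression. These 2 genes were low in the libraries with 246 to 388 CPM of fibroblast markers and high in those with 53173 CPM or more; the part of fibroblast RNA was not tested.

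**Figure D4:**
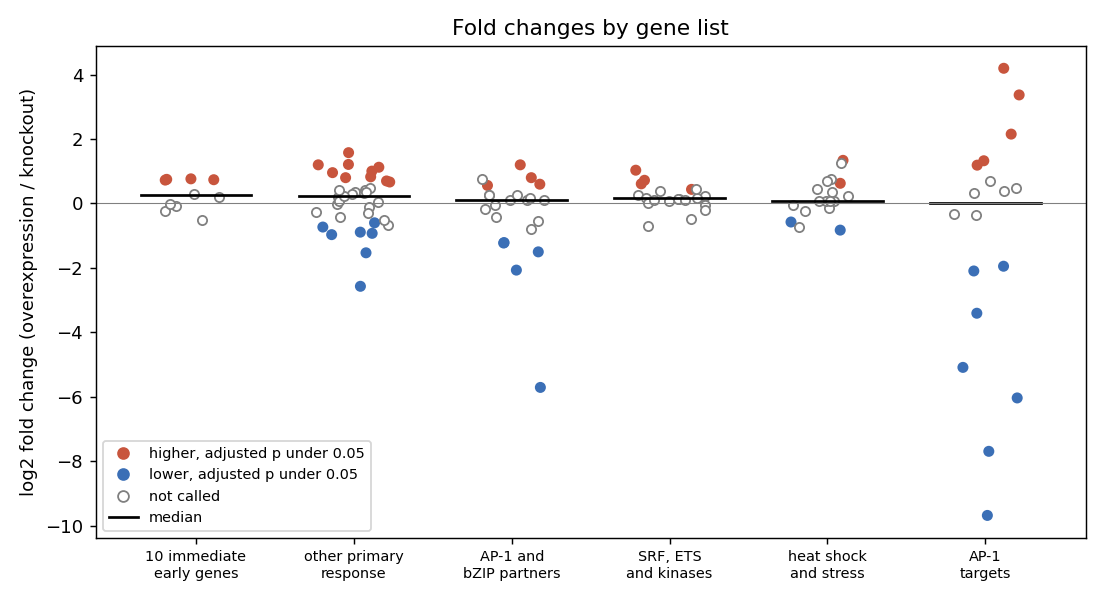
Log2 fold change, overexpression over knockout, of each tested gene in 6 lists, with red and blue points for genes higher and lower past an adjusted p of 0.05, open points for genes not called, and a line at each median. The 10 immediate early genes lie between -0.52 and 0.76, while the AP-1 targets span from -9.68 to 4.195.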

How the data were processed

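The authors deposited 1 table of gene counts, unnormalized and in whole numbers, with a column for each library. The submitters' processing notes name kallisto 0.44.0 and mm10, with no role; annotation and strand setting are not given in the sources used here. Of 55481 rows, 55385 are mouse genes; the other 96 (spike-ins and reporters) were left out (at most 2.23e-05% of the counts in any library). Symbols, positions and transcript lengths are from GENCODE M21 (GRCm38), and promoters from RefSeq. The filter filterByExpr (at least 10 counts, total at least 15) kept 18504 genes, among them all 10 members. Counts were scaled with TMM and tested by quasi-likelihood in edgeR 4.0.16 (R 4.3.3), with all 6 libraries in 1 fit, group as the only term and a threshold of 0.05 on the Benjamini-Hochberg adjusted p over all genes. The standard error is the log2 fold change over the square root of F, and 95% intervals use the fit's degrees of freedom. CPM uses TMM-scaled library sizes, in which 3 counts, the limit of a count of 0, are 0.0759 to 0.101 CPM. Such limits, the Wilson intervals and the exact binomial intervals cover counting error only. The intervals of fold changes also include the spread between libraries. The fit was tested on simulated counts with 200 of 18504 genes changed, far fewer than the 5848 genes called in the data. Unchanged genes passed an unadjusted p under 0.05 at close to that rate (4.79%). The test found 100 of the 200 changed genes. Of its 118 calls 18 were false, a share above the threshold of 0.05.

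Same-numbered libraries did not deviate together (correlations of 0.0508, 0.0223 and -0.0399 over genes), so replicates were not paired. No batch is in the labels. The alternatives were RLE and upper-quartile factors, library totals alone, scaling to epithelial markers, no filter, robust dispersion, a replicate block, DESeq2 1.42.0 and leaving out each library. Named besides the 10 genes and Sox2 were the 4 genes of the primary response list, and 2 of each other list, with the smallest p in each direction past the threshold, and the 4 profiles closest to Fos and to Egr1 (average log2 CPM of at least 4, no Gm or Rik genes). Members and lists were chosen with earlier results of these data known.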

Additional observations from a re-analysis of the deposited data

How the results depend on the processing

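Values are from edgeR unless DESeq2 is named. The 4 calls among the 10 genes were 3 with upper-quartile factors (Ier2 at an adjusted p of 0.0543) and 4 with RLE factors, library totals, no filter, robust dispersion, the replicate block and DESeq2. When 1 library was left out, 0 to 4 of the 10 genes, 12 to 17 primary response genes, 7 to 10 bZIP genes, 1 to 5 upstream genes and 1 to 5 heat shock genes were called. Heat shock calls were 7 without the filter and 7 with DESeq2, against 4.

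Scaling to the epithelial markers called 6 of the 10 genes, all lower. It called 24 other primary response genes, 17 bZIP genes, 17 upstream genes and 13 heat shock genes, all lower, and 13 AP-1 targets, 3 higher and 10 lower. Under it the log2 fold changes turned to -0.92 for Fosl2, -0.40 for Junb, -0.38 for Jund, -0.81 for Atf3, -0.41 for Ier2, -0.35 for Ier3, -0.32 for Fosl1, -0.54 for Hspe1, -0.12 for Mapk3, -0.018 for Plk2 and -0.44 for Srf. This scaling is built on genes that were themselves mostly higher with overexpression.

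Fosb and Egr1 had fold changes near 0 whose sign was not fixed, with ranges from -0.20 to 0.089 for Fosb and from -0.095 to 0.12 for Egr1 when 1 library was left out. Egr1 was at 0.0050 without the filter. Same-numbered libraries gave no sign of pairing, and not every library was closest to its own number. With the replicate block 4 of the 10 genes and 6 heat shock genes were called. Each of the 10 genes had 14488 counts or more in every library.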
